A study of Mus musculus with 6 samples.

Results

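To examine whether the transcripts of fast neurotransmitter receptors differed between genotypes in microglia after acute ischemic stroke (AIS), the subunit genes of the ionotropic glutamate receptors, the GABA-A receptors and the glycine receptors were read from microarrays. The members were chosen by gene symbol alone, as Gria, Grik, Grin or Grid with a number, the Gabr subunits, Glra1 to Glra4 and Glrb. This gave 42 of the 23462 genes that a probe of the array named. They comprised 18 ionotropic glutamate receptor genes (4 AMPA, 5 kainate, 7 NMDA and 2 delta), 19 GABA-A receptor genes and 5 glycine receptor genes, measured by 67 probes.

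These receptors are ion channels built from several subunits, which open when a transmitter binds. Glutamate receptors of the AMPA, kainate and NMDA type carry most fast excitation in the brain, while GABA-A and glycine receptors pass chloride and carry most fast inhibition. Their subunits are known chiefly from neurons, and some are also made by astrocytes and by cells of the oligodendrocyte lineage. Microglia, the immune cells that reside in the brain, are not their main source.

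The control mice were PGC-1αf/f, whose eGFP-tagged PGC-1α allele is silent until Cre recombinase acts on it. The mPGC-1α mice carried this gene and also a tamoxifen-inducible Cre under Cx3cr1, which is active in microglia and in other myeloid cells. According to the study's methods both genotypes received tamoxifen before the transient occlusion of the middle cerebral artery that produced AIS, and cells were then selected with an antibody to P2RY12. There were 3 control and 3 mPGC-1α samples, 1 array each, all labelled as male and 10 weeks old. The labels give neither the time after stroke nor whether a sample was 1 mouse or a pool, so the p-values measure only the spread between these samples.

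Each array had 62976 features, and the 75th percentile of its spots, to which every level below is relative on the log2 scale, lay between 927 and 1540 intensity units. Arrays 1 and 2 of each group shared the first slide, on which 40 or 41 of the 42 receptor genes had a probe well above background, and arrays 3 lay on a second slide, where 30 or 31 had one. Of the microglia markers, Csf1r lay between 4.99 and 5.34 on every array, and P2ry12, with outlier-marked spots kept, between 3.54 and 4.01. Ppargc1a, the targeted gene, had levels of -1.44, -0.94 and -0.93 in control samples 1 to 3 and of -1.49, -1.27 and -1.54 in mPGC-1α samples 1 to 3, so it was not higher with the transgene (limma adjusted p = 0.817), and whether its probe reads the tagged transcript was not tested. Cx3cr1 was lower by 1.25 on the log2 scale on the mPGC-1α arrays, without overlap between the groups (limma adjusted p = 0.669). The study names the Cre allele as one of Cx3cr1 itself, so the genotypes differ at this gene by design. The part of that allele in the difference was not tested. Xist, a transcript of the inactive X chromosome, lay at -5.21 on control array 2 and between -0.97 and -0.51 on the other 5 arrays, and Ddx3y, a Y-linked gene, was well above background on control array 2 only, although all samples carry the label male. Control array 2 thus stood apart from the other 5 arrays, although in both genes it is the array that matches the label male. The control group therefore holds both patterns, and results are also given without control array 2. In the text below mPGC-1α therefore names the label of an array.

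Of the 42 receptor genes, 31 were tested, each by its brightest tested probe. A probe was tested where its signal was well above background on all arrays of at least one group, so a gene that is bright in one group alone could enter. Gabrr2 entered through the mPGC-1α group alone. The mean was higher in the mPGC-1α arrays for 27 of the 31 genes (87.1%), against a background of 61.7% of all 18222 tested genes. The median difference was 0.51 on the log2 scale, where it was 0.09 over all tested genes. With only probes well above background on all 6 arrays, 26 of 30 receptor genes were higher, with a median of 0.50. In that setting 61.1% of all genes were higher. With limma and Benjamini-Hochberg adjustment over all 40745 probes, 0 receptor genes passed (background 0%). At an unadjusted p below 0.05, 8 genes (25.8%) were higher, where the background was 2.97% of genes, and 0 were lower, where it was also 2.97%. The mPGC-1α arrays all lay above the control arrays for 8 genes as well, against a background of 7.34%, and for 0 genes all below, against 3.87%. Of the 11 genes with 2 or more tested probes, 6 had only higher probes and 5 had probes of both signs. The genes below 0.05 and those without overlap were the same 8, among them Gria1, Gria2, Grin2c, Gabra3, Gabrb1, Gabrg1 and Glrb. In these samples more of a receptor transcript per cell and more cells that carry it cannot be told apart.

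The adjusted count was 0 under every change of scaling alone, but not without 1 array, nor when the replicate block and another scaling were combined. Without control array 2, Glrb passed (limma adjusted p = 0.0276) among 3.47% of all genes. With the replicate number as a block, 0 receptor genes passed and the smallest adjusted p was 0.106 for Gria1. When that block was combined with a 75th percentile taken over unmarked spots, a set that differs between arrays, 4 receptor genes passed. They were Gria1 (adjusted p = 3.07e-05), Glrb (0.00415), Gabrg1 (0.029) and Gria2 (0.0443), among 2.92% of all genes. In that fit limma shared the variance between probes more strongly, with 74.6 prior degrees of freedom against 9.3 in the block fit with the main scaling.

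**Figure D1:**
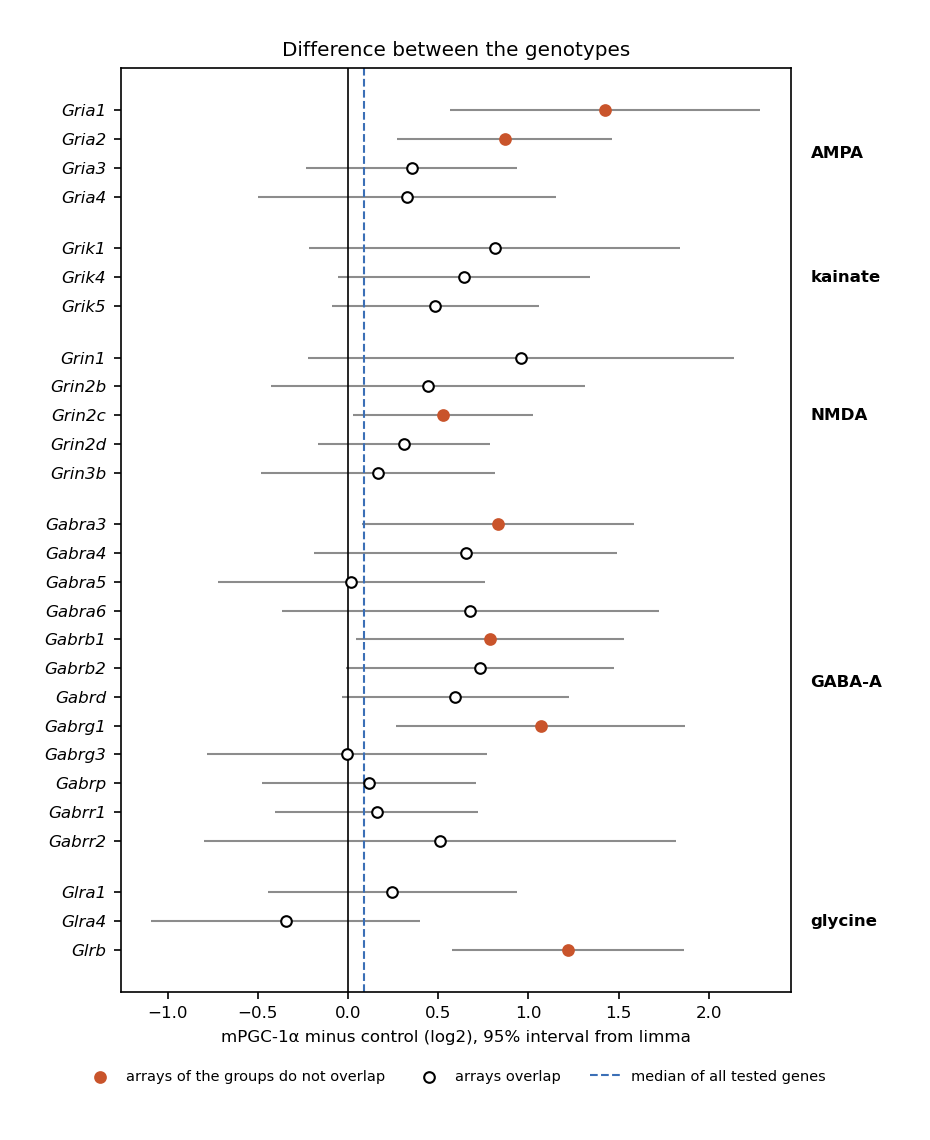
The difference between the genotypes is plotted for 27 of the tested receptor genes on the x axis (mPGC-1α minus control, log2), with 95% intervals from limma as grey lines, the genes grouped by receptor class, filled points for the 7 of them without overlap between arrays and a dashed line at the median of all tested genes, 0.09. Gria1, Glrb and Gabrg1 lie above 1, and 0 intervals lie wholly below 0.

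Promoter sequence is shown for 4 of these 8 genes, chosen after the matches were seen. Of the 8 genes, 6 had a promoter window, among them Gabra3 and Gabrg1, whose windows hold the searched CCAAT and are not shown. Windows of 250 bases before the start of transcription were taken from RefSeq (build GRCm38.p6) for 29 of the 42 member genes, 33 windows in all. Gria2 lies at chr3:80802836-80803085 on the minus strand, Glrb at chr3:80913661-80913910 on the minus strand, Gabrb1 at chr5:71699682-71699931 on the plus strand and Grin2c at chr11:115267244-115267493 on the minus strand. Capitals mark the match to a motif or to its reverse complement, which is to GGACAGC in Gria2 and Glrb, to GCGCANGCG, matched on both strands, in Gabrb1 and to AAGGTCA in Grin2c. Matches to other searched motifs, such as GGGCGGG in Grin2c, are not marked.
Gria2: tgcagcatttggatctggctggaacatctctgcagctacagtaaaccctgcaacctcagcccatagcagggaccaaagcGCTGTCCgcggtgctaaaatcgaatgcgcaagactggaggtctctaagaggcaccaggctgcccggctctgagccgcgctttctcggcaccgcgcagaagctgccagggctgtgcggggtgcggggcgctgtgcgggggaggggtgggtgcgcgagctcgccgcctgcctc
Glrb: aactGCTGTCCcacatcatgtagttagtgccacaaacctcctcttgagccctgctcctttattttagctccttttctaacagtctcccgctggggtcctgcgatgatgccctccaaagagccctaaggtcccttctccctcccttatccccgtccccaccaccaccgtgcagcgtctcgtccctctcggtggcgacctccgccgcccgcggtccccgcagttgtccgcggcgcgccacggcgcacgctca
Gabrb1: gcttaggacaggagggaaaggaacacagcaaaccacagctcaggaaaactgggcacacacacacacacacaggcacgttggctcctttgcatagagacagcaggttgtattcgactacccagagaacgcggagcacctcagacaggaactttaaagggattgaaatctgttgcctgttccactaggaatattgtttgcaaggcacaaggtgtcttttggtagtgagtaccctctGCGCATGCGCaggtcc
Grin2c: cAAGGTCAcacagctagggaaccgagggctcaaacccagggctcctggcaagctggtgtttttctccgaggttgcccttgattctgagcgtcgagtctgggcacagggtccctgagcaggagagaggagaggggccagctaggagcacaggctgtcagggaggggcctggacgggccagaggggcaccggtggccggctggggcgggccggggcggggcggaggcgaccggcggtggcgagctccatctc

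Among the 14 motifs searched on both strands, the ones marked were chosen after the matches were seen. GGACAGC, the right part of RE1, the element bound by the neuronal gene repressor REST, was in 9.1% of the member windows and in 5.3% of all 32851 promoter windows, while TCAGCACC, the left part, was in 0.0% and 1.3%. AAGGTCA, the core of the site of estrogen-related receptors, which work with PGC-1α, was in 3.0% and 4.1%. GCGCANGCG, from the site of nuclear respiratory factor 1, was in 6.1% and 5.2%, and overlaps TGCGCANGC, which was in 6.1% and 3.5%. The full site TCAAGGTCA was in 0.0% and 0.4%, and the cyclic AMP response element TGACGTCA in 0.0% and 1.5%. TNAAGGTCA, which takes in the full site, was in 0.0% and 1.1%, TGACGTNA, which takes in the cyclic AMP element, in 0.0% and 2.5%, and the RE1 parts joined in 0.0% of either set. The E-box CACGTG was in 3.0% and 6.0%, and the E-box CAGCTG in 2 of the 33 member windows and 4271 of all windows. CCAAT was in 42.4% and 33.8%, and GGGCGGG in 33.3% and 23.4%. Exact letters were required except at N, so near matches were not counted. In Gria2, for example, ggtgctaa beside the marked match differs by 1 letter from the reverse complement of TCAGCACC. Such matches describe letters only.

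The AMPA receptor genes, which encode the channels of fast excitatory transmission, were all 4 higher on average, by a median of 0.61. Gria1, which encodes GluA1, measured 0.23, 0.69 and 0.21 in control samples 1 to 3 against 2.40, 2.18 and 0.82 in mPGC-1α samples 1 to 3. The mPGC-1α arrays thus lay above all control arrays, although mPGC-1α array 3 exceeded control array 2 only narrowly. The difference was 1.42 (SE 0.38, 2.69-fold, 95% interval 0.57 to 2.28, limma adjusted p = 0.669), and p = 0.1 was reached in the two-sided exact permutation test, which cannot go lower with 3 arrays against 3. The first slide alone gave 1.83, the second 0.61.

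Gria2 encodes GluA2, the subunit that limits the calcium permeability of AMPA receptors. Its levels were -1.52, -1.59 and -1.40 on the control arrays, which lay close together, and -0.20, -1.05 and -0.66 on the mPGC-1α arrays, all of them higher. The difference was 0.87 (SE 0.27, 1.83-fold, limma adjusted p = 0.669), with 0.93 on the first slide and 0.74 on the second one. A second, dimmer Gria2 probe differed by 0.58, and there the groups overlapped. Gria3 and Gria4, which encode GluA3 and GluA4, differed by 0.35 and 0.33 with overlapping arrays. Of the dimmer Gria4 probes, one lay at -0.28 on mPGC-1α array 2 and between -4.69 and -3.95 on the other 5 arrays, so that its difference of 1.22 came from that array alone, and the other, not well above background on 1 mPGC-1α array, differed by -0.17.

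Kainate receptor genes encode glutamate channels that act on both sides of the synapse. Of the 5 genes 3 were tested, all 3 were higher on average by 0.48 to 0.81, and for 0 of them did the groups separate. Grik1 had levels of -4.83, -4.56 and -5.23 on the control arrays and -3.03, -4.56 and -4.58 on the mPGC-1α arrays. Only mPGC-1α array 1 stood clear of the control arrays, and the difference was 0.81 (SE 0.46, limma adjusted p = 0.767). A second tested Grik1 probe gave -2.36 (SE 0.87, adjusted p = 0.673), with -3.38 on control array 3 and -9.11 on mPGC-1α array 1 as its extremes. That probe was well above background on all 3 control arrays but on 1 mPGC-1α array only, so it was tested only through the control group and the size of its difference is uncertain. Grik4 and Grik5, which encode the high-affinity subunits, differed by 0.64 and 0.48, and a second Grik5 probe by -0.10.

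Grik2, the subunit found in most kainate receptors, was not well above background on the second slide and was not tested. Its brightest probe measured -6.08 and -5.44 for the controls of the first slide against -4.89 and -5.09 for the mPGC-1α arrays beside them. On the first slide both mPGC-1α arrays were thus the higher ones, by 0.77 (SE 0.49), with an adjusted p = 1 in a limma fit of these 4 arrays. Across all arrays the groups overlapped, since control array 3 lay at -5.65 and mPGC-1α array 3 at -6.35.

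NMDA receptors are glutamate channels that pass calcium and are known for their part in excitotoxic injury after ischemia. Of the 7 genes 5 were tested, and all 5 were higher on average, by a median of 0.45. Grin1, the subunit that every NMDA receptor contains, had levels of -2.69, -1.95 and -3.11 on the control arrays and of -0.35, -2.17 and -2.35 on the mPGC-1α arrays. Only array 1 of the mPGC-1α group stood apart, and the difference of 0.96 (SE 0.52, 95% interval -0.22 to 2.14, limma adjusted p = 0.758) was 0.33 without it. The second Grin1 probe differed by 0.38 and placed mPGC-1α array 1 at -2.12, next to array 2 at -2.04. A dimmer Grin2b probe likewise lay at -1.87 on mPGC-1α array 1 and between -5.39 and -4.33 elsewhere.

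Grin2c, a subunit known from the cerebellum and from astrocytes, was the one NMDA gene whose groups did not overlap. Its levels were -0.10, 0.47 and 0.08 on the control arrays and 0.77, 0.74 and 0.52 on the mPGC-1α arrays. The difference was 0.52 (SE 0.22, limma adjusted p = 0.686), and a second probe, also without overlap, gave 0.79 (SE 0.25, adjusted p = 0.669). Both probes thus had the higher levels in the mPGC-1α group. Grin2b, Grin2d and Grin3b differed by 0.45, 0.31 and 0.17 with overlapping arrays.

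**Figure D2:**
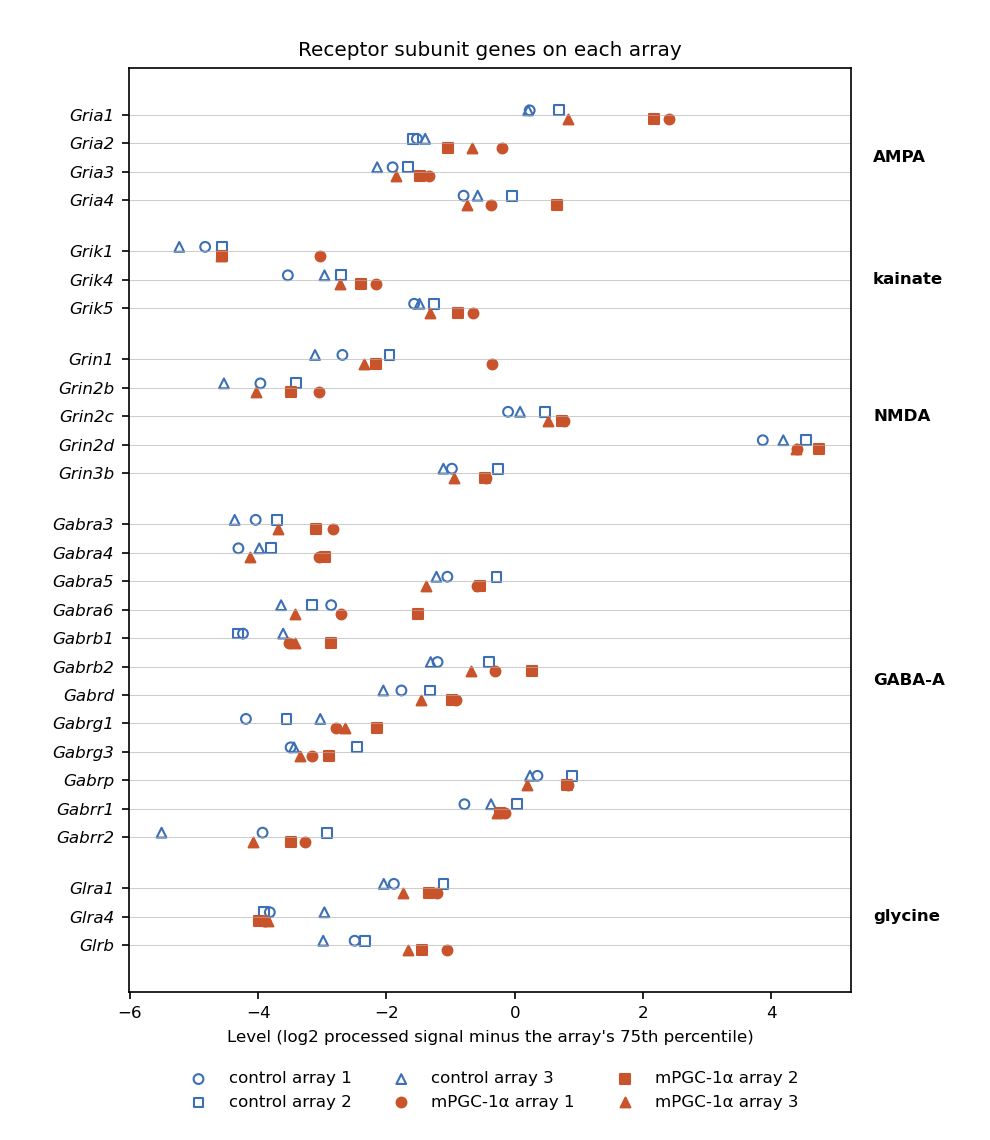
The level of 27 of the tested receptor genes is plotted on the x axis (log2 processed signal minus the array's 75th percentile), with open blue symbols for control arrays, filled orange symbols for mPGC-1α arrays and circles, squares and triangles for arrays 1, 2 and 3. The orange triangle of mPGC-1α array 3 is the lowest of its group for 23 of these genes, and the open square of control array 2 is the highest of its group for 22.

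GABA-A receptor genes encode the main inhibitory chloride channels. Of the 19 genes 15 were tested, 13 were higher on average, and the median difference was 0.59. Gabrb2, which encodes a beta subunit, had levels of -1.20, -0.40 and -1.31 on the control arrays and -0.31, 0.28 and -0.68 on the mPGC-1α arrays, where control array 2 reached into the mPGC-1α range. Its difference was 0.73 (SE 0.33, limma adjusted p = 0.703), but -0.11 on a second tested probe.

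Gabra3, an alpha subunit of receptors that also contain beta and gamma subunits, had control levels of -4.04, -3.71 and -4.37 and mPGC-1α levels of -2.83, -3.10 and -3.69. The groups were only just apart, between control array 2 and mPGC-1α array 3, and the difference was 0.83 (SE 0.33, limma adjusted p = 0.68). Gabrb1 measured -4.24, -4.31 and -3.61 against -3.51, -2.86 and -3.42. Here mPGC-1α array 1 was the closest to the control arrays, and the difference was 0.79 (SE 0.33, adjusted p = 0.686), with 1.09 on the first slide and 0.19 on the second one.

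Gabrg1, a gamma subunit also made by astrocytes, had the largest difference of the GABA-A genes by their brightest tested probes. It measured -4.19, -3.56 and -3.03 on the control arrays and -2.79, -2.14 and -2.65 on the mPGC-1α arrays, all of them above the control range. The difference was 1.07 (SE 0.36, 2.10-fold, 95% interval 0.27 to 1.87, limma adjusted p = 0.669), with 1.41 on the first slide and 0.39 on the second one. A dimmer Gabrg1 probe that was not tested differed by -0.84.

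Overlapping groups were found for further GABA-A genes. Gabrd, which encodes the delta subunit of receptors outside synapses, differed by 0.59, Gabra4 by 0.65 and Gabra6, known from cerebellar granule cells, by 0.68. Gabrr2 differed by 0.51 but was well above background on 2 of the 3 control arrays. It was thus tested only through the mPGC-1α group, in which it is higher. Gabrr1 and Gabrp differed by 0.16 and 0.12. For Gabra5 the brightest probe differed by 0.02, while a dimmer probe differed by 1.80 as measured (SE 0.40, limma adjusted p = 0.669). This probe was well above background on 3 mPGC-1α and 2 control arrays, so it was tested only through the group in which it is high. It measured -5.80, -5.39 and -6.50 on the control arrays, the last of them not well above background, and -3.79, -4.57 and -3.94 on the mPGC-1α arrays.

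Gabrg3, another gamma subunit, lay at nearly equal levels in both groups. It measured -3.49, -2.46 and -3.44 on the control arrays against -3.16, -2.90 and -3.35 on the mPGC-1α arrays, and differed by -0.0043 (SE 0.34, limma adjusted p = 0.999). The sign of Gabrg3 turned under other scalings, so it has no direction.

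Glycine receptor genes encode chloride channels known chiefly from the spinal cord and brain stem. Glrb, the beta subunit that anchors these receptors to gephyrin, had the lowest unadjusted limma p-value of the receptor genes by their brightest tested probes. Its levels were -2.50, -2.33 and -2.99 on the control arrays and -1.05, -1.44 and -1.66 on the mPGC-1α arrays. Each mPGC-1α array lay above every control array, and the difference was 1.22 (SE 0.28, 2.33-fold, 95% interval 0.58 to 1.86, adjusted p = 0.669). On the first slide it was 1.17, and on the second 1.33. A dimmer Glrb probe, well above background on 1 array and not tested, differed by -0.87.

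The alpha subunits had smaller or negative differences. Glra1 differed by 0.25 (SE 0.31, limma adjusted p = 0.902) with overlapping groups. Glra4 measured -3.82, -3.91 and -2.97 on the control arrays and -3.89, -3.99 and -3.84 on the mPGC-1α arrays, where control array 3 alone stood out. Its difference was -0.34 (SE 0.33, adjusted p = 0.864), with -0.08 on the first slide and -0.87 on the second one. Glra2 and Glra3 were not tested, and Glra3 lacked a signal well above background on all 6 arrays.

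Many GABA-A receptor genes lie next to each other in the genome. By the order of protein-coding genes in RefSeq, 20 of the 42 members formed 7 groups of neighbours with at most 1 other gene between them. In a group on chromosome 11, Gabra6 and Gabrb2 differed by 0.68 and 0.73. On chromosome 5, Gabrg1, Gabra4 and Gabrb1 differed by 0.65 to 1.07, and Gabra2, between them, by 1.93 without being tested. On chromosome 7, Gabrg3 and Gabra5 differed by -0.0043 and 0.02 on their brightest probes, with the dimmer Gabra5 probe at 1.80. Gria2 and Glrb, whose promoters are printed above, are neighbours on chromosome 3. These groups were formed after the values were seen, and the difference between them was not tested.

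**Figure D3:**
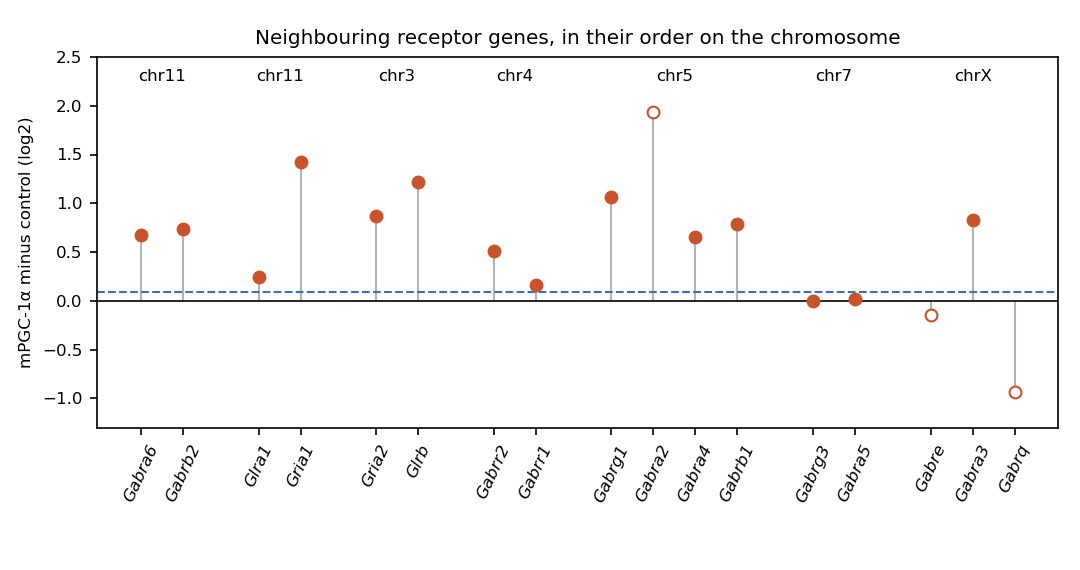
The difference between the genotypes (y axis, mPGC-1α minus control, log2, brightest probe) is plotted for 17 receptor genes in 7 groups of neighbours, ordered as on the chromosome, with filled points for tested genes, open points for genes not tested and a dashed line at the median of all tested genes, 0.09. Gabra6 and Gabrb2 on chromosome 11 lie at 0.68 and 0.73, and Gabrg3 and Gabra5 on chromosome 7 at -0.0043 and 0.02, though the sign of Gabrg3 turned under other scalings.

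Leaving out the second slide made the dimmer receptor genes measurable. With the 4 arrays of the first slide alone, 10 more receptor genes could be tested. Of these, 8 were higher on average in the mPGC-1α arrays, where 59.1% of all genes were higher in this fit. Their median difference was 0.55, and 0 passed the adjustment. An unadjusted p below 0.05 was found for Gabra2, which was higher, and for Gabrq, which was lower, where the background in this fit was 1.94% of genes higher and 0.772% lower. Gabra2, the alpha subunit of many forebrain receptors, lay at -5.09 and -7.02 on control arrays 1 and 2 and at -3.79 and -3.49 on their mPGC-1α counterparts, and differed by 2.41 as measured (SE 0.65, limma adjusted p = 1). It was well above background on both mPGC-1α arrays but on 1 control array only, so it was tested only through the group in which it is high. Gabrq, which encodes the theta subunit, differed by -1.61 as measured (SE 0.49, adjusted p = 1), but neither mPGC-1α array was well above background for it, so no fold is given. Grin3a, Grik2, Grin2a and Grid1 differed by 1.19, 0.77, 0.66 and 0.58, Glra2, Gabrr3 and Grik3 by 0.52, 0.47 and 0.40, and Gabre by -0.20.

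Within the first slide 28 of the 31 tested genes were higher in the mPGC-1α arrays, with a median of 0.60, against 59.3% of all genes, and on the second slide 23, with a median of 0.24, against 59.8%. The difference was larger on the first slide for 25 of the 31 genes, and 22 were higher on both. No share over all genes is given for either count, but the median over all genes was 0.07 on the first slide and 0.10 on the second. The second slide compared 1 array with 1, so these values carry no error. Without control array 2 the median over the 31 genes was 0.69, where it was 0.20 over all genes, and the mPGC-1α arrays all lay above control arrays 1 and 3 for 20 genes, where this held for 31.8% of all genes.

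**Figure D4:**
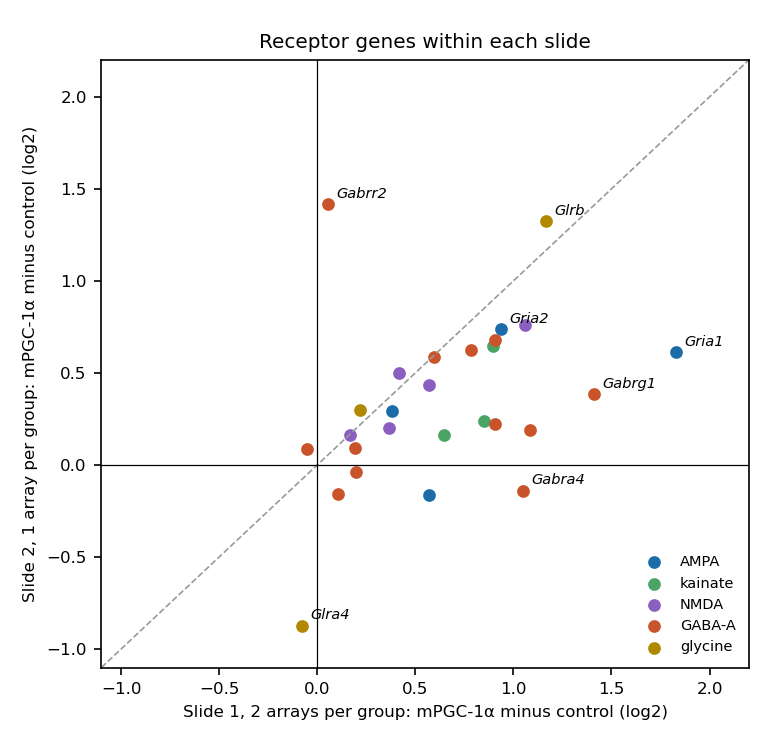
Each point is 1 of 27 tested receptor genes, with the difference within the first slide on the x axis (2 arrays per group) and that on the second slide on the y axis (1 array per group), both mPGC-1α minus control on the log2 scale, coloured by receptor class, and the dashed line marks equal differences. For 22 of these genes the point lies below the line, and Glrb, at 1.17 and 1.33, lies above it.

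Markers of other brain cells were read beside the receptor genes. The background for the counts of each list is 61.7% of all tested genes higher on average, with a median of 0.09. Summed levels are taken over the genes of a list with a value on all 6 arrays, in multiples of the 75th percentile. Of the neuron markers, 15 of 16 were higher on average in the mPGC-1α arrays, with a median of 0.62, and 0 passed the limma adjustment. Rbfox3, the gene of the nuclear protein NeuN, had the largest difference, 1.40 (SE 0.59), with overlapping groups. It lay at 0.002 on mPGC-1α array 2, but at -1.81 and -2.71 on arrays 1 and 3 of that group. Nefm had the lowest difference, -0.22. The summed neuron marker level ranged from 37.8 to 60.3 on the control arrays and from 57.9 to 69.97 on the mPGC-1α arrays. Snap25, the brightest neuron marker, weighs most in this sum, and it differed by 0.28 with overlapping groups. Astrocyte markers were higher for 8 of 9 genes tested (median 0.65, sums 8.21 to 12.2 and 12.9 to 42.1), and oligodendrocyte markers for 10 of 10 (median 0.86, sums of 8 genes 7.23 to 14.0 and 15.4 to 26.9). The astrocyte sum of 42.1 was that of mPGC-1α array 2, where arrays 1 and 3 of the group had 12.9 and 15.0. Markers of oligodendrocyte precursors were higher for 6 of 6 (median 0.25, sums of 5 genes 0.446 to 0.661 and 0.484 to 0.829). The summed level of the 31 receptor genes ranged from 23.5 to 36.4 and from 32.1 to 44.6. Grin2d, by far the brightest receptor gene, makes up most of this sum, which therefore says little about the others. Its levels spanned 3.87 to 4.54 (control) and 4.39 to 4.74 (mPGC-1α), so its groups overlapped, and it differed by 0.31. The part of these cells in the receptor values was not tested.

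Markers of myeloid cells were mostly lower on average. Microglia markers were higher for 4 of 10 tested genes (median -0.11, sums of 6 genes 83.2 to 99.6 and 83.2 to 89.6), and monocyte and macrophage markers for 0 of 8 (median -0.21, sums of 5 genes 25.8 to 33.5 and 18.9 to 38.5). Cx3cr1, at which the genotypes differ by design, is among the microglia markers tested. The microglia markers P2ry12 and Tmem119, not tested, differed by -0.02 and 0.09 with outlier-marked spots kept. Choroid plexus markers were higher for 0 of 3 (median -0.63, sums 11.0 to 17.9 and 6.24 to 14.1) and endothelial markers for 3 of 5 (median 0.21, sums 1.02 to 2.09 and 0.841 to 1.04). A sixth endothelial marker, Tek, lacked a signal well above background throughout and was not tested. The median over the receptor genes was -2.69, -2.33 and -2.97 in control samples 1 to 3, against -1.33, -1.51 and -2.35 in mPGC-1α samples 1 to 3. That of the neuron markers was -1.49, -0.81 and -1.67 and then -0.29, 0.02 and -0.80. Both medians were highest, within the control group, on array 2 and lowest on array 3, and within the mPGC-1α group lowest on array 3. They differed in the highest mPGC-1α array, which was array 1 for the receptor genes and array 2 for the neuron markers. The order was not particular to them, since the median of the glutamate receptor scaffolds was also highest on control array 2 and lowest on array 3 of each group.

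**Figure D5:**
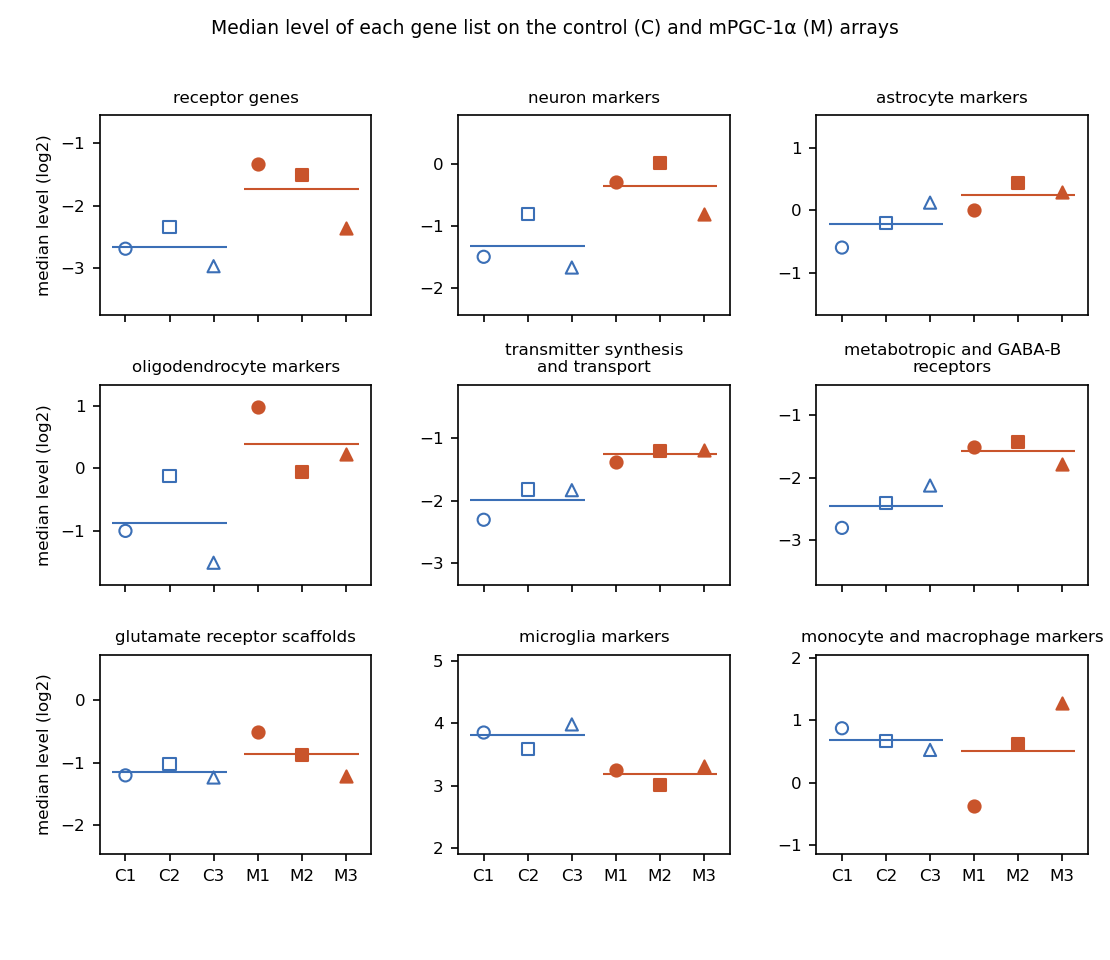
Each panel plots, for one list, the median level over its tested genes with a value on all 6 arrays (y axis, log2 relative to the 75th percentile of the array) on control arrays (C1 to C3, open) and mPGC-1α arrays (M1 to M3, filled), with lines at the group means. Receptor genes, neuron markers and glutamate receptor scaffolds are lowest on array 3 of each group. The medians of the microglia markers lie between 3.59 and 3.98 on control and between 3.02 and 3.32 on mPGC-1α arrays. They are taken over 6 genes, of which Cx3cr1, Olfml3 and Sall1 differed by -1.25, -1.38 and -0.17. The others, Aif1, Csf1r and Trem2, differed by 0.21, 0.17 and 0.23. At Cx3cr1 the genotypes differ by design.

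The proteins that work with these receptors were read from lists of their own, and 0 of their genes passed the limma adjustment. For each of these lists the background is 61.7% of all tested genes higher on average, with a median of 0.09. Auxiliary subunits of glutamate receptors, which traffic and tune the channels, were close to it, with 7 of 10 tested genes higher and a median of 0.14. Cacng2, the gene of stargazin, measured -1.94, -1.63 and -2.78 on the control arrays against 0.06, 0.07 and -2.39 on the mPGC-1α arrays. It differed by 1.36 (SE 0.62, adjusted p = 0.706), and mPGC-1α array 3 lay within the control range. Neto2, a partner of kainate receptors, had the lowest difference, -0.65, and was not well above background on 1 mPGC-1α array.

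Scaffolds that hold glutamate receptors at the synapse were higher for 15 of 16 genes, with a median of 0.20. Camk2b, a subunit of the calcium-dependent kinase of the synapse, measured -1.87, -1.84 and -2.81 on the control arrays and -0.25, -0.62 and -1.64 on the mPGC-1α arrays. These groups did not overlap, and the difference was 1.34 (SE 0.40, limma adjusted p = 0.669). Dlg1 differed the other way, by -1.64 (SE 0.51, adjusted p = 0.669), although control array 2, at -2.51, lay close to the mPGC-1α arrays, which spanned -3.14 to -2.58.

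Partners of GABA-A and glycine receptors were higher for 7 of 9 genes, with a median of 0.31. Lhfpl4, which places GABA-A receptors at synapses, measured -3.55, -3.54 and -4.07 against -2.62, -2.41 and -3.18, a difference of 0.98 without overlap (SE 0.32, limma adjusted p = 0.669). Gphn, the gene of gephyrin, to which Glrb binds, differed by 0.31, also without overlap. Gabarapl2 had the lowest difference, -0.09, and was marked as an outlier on the second slide.

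Genes that make or carry the transmitters were higher for 12 of 12 tested genes, with a median of 0.49. Gad1, which makes GABA, had the largest measured difference, 1.15 (SE 0.48, limma adjusted p = 0.686), but was well above background on 2 of the 3 control arrays and so was tested only through the mPGC-1α group. Glul, the glutamine synthetase of glia, had the smallest, 0.07. Metabotropic glutamate and GABA-B receptors, which act through G proteins, were higher for 7 of 7, with a median of 0.62. Grm8, counted among these 7, differed by 1.27 through control array 2 alone, which lay at -7.74, not well above background. The other 5 arrays lay between -2.94 and -1.74. Grm8 was thus tested only through the mPGC-1α group, and without control array 2 it differed by -0.55. Grm2 differed least, by 0.17. Grm3, a receptor also made by astrocytes, had mean levels of -2.51 in the control and -1.50 in the mPGC-1α arrays, without overlap.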

How the data were processed

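P2RY12-selected microglia of 3 PGC-1αf/f (control) and 3 mPGC-1α samples with AIS were measured by the authors on single-colour Agilent mouse arrays, and groups and replicate numbers were taken from the labels. The deposited scanner files hold linear intensity values, background-subtracted but not normalized between arrays, from Agilent Feature Extraction 11.5.1.1. The authors' series matrix holds log2 values of 46731 probes, which correlated with the scanner values of the same array at r of at least 0.999.

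Levels are the log2 processed signal of a probe less the log2 of its array's 75th percentile over all non-control spots, with outlier-marked spots left out. Calculations ran in R 4.3.3 and used data.table (version 1.17.8). The percentile over all spots was chosen after its results and those of a percentile over unmarked spots, a set that differs between arrays, had both been seen, and the closing section gives both. Probes were named by accession through RefSeq, GRCm38.p6 (33767 of 56605), and a probe was tested where every unmarked array of a group had it well above background (40745 probes). The genotypes were the sole factor of a two-sided limma fit (version 3.58.1, lmFit, then eBayes with its trend option), with Benjamini-Hochberg adjustment over all probes and a threshold of 0.05, and single genes were also compared by exact permutation tests over all 20 assignments. The procedure was tested on simulated data. At the adjusted threshold it recovered 1 of 50 probes with a log2 change of 1, 24 of 50 with 2, 48 of 50 with 4 and 20 of 50 with -2. A count of 0 genes passing thus says little about differences near 1. Alternatives were quantile and normexp normalization, the series matrix, other filters, the mean of the probes of a gene, slide and replicate blocks, no intensity trend, marked spots kept, leaving out each replicate and, chosen after seeing the data, the first slide alone, other percentiles, and the replicate block with the latter or with quantile normalization. 11 receptor genes were not tested because no probe passed the filter.

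Same-number arrays deviated together from their group means (correlations 0.247, 0.224 and 0.171, against at most 0.0346 otherwise), so the numbers may pair the samples, without a label that gives their meaning. The fit, its errors and the permutation tests do not use this pairing, and the replicate block is an alternative. Members and lists were chosen with earlier results of these data known. Values on every array are given for the 8 largest positive and the 4 largest negative differences, for Gria2, Grin1, Grik2, Gabrb2 and Glrb and for the label checks, and from the partner lists the largest and smallest differences are named. The Grin2c, Gabra2 and Gabrq values, second probes, Gphn, Grm3, promoter motifs and neighbouring genes were added after their values were seen. Some receptor genes that these rules select are counted but not reported here one by one.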

Additional observations from a re-analysis of the deposited data

How the results depend on the processing

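The median difference over the receptor genes lay between 0.34 and 0.74 under all 22 alternatives, and the number of genes with a higher mean changed by less than 1.5 times under each. Leaving out each replicate in turn gave 0 to 1 genes with an adjusted p below 0.05, 3 to 13 with an unadjusted p below 0.05 and a higher level, and 0 to 1 with a lower level, where 1.49% to 12.4% and 1.32% to 8.03% of all genes did so. The single genes were Glrb, without control array 2 (difference 1.36, adjusted p = 0.0276, 3.47% of all genes), and Gabrq, lower without control array 3. With the first slide only, 1 gene, Gabrq, was lower at an unadjusted p below 0.05 (0.772% of all genes). With the 75th percentile over unmarked spots 14 genes were higher at an unadjusted p below 0.05 (3.58% of all genes). The replicate block gave 11 such genes (4.55%) and changed no call. When it was combined with the percentile over unmarked spots, 16 were higher (7.5%) and 4 passed the adjustment, Gria1 (1.52), Glrb (1.31), Gabrg1 (1.16) and Gria2 (0.96), with 2.92% of all genes. Combined with the percentile over probes unmarked on all arrays it gave 14 (6.65%) and 0. The median over all genes was 0.09 with the main scaling, 0.17 with unmarked spots and 0.14 with probes unmarked on all arrays.

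Of the 11 genes followed through every alternative, 9 kept their sign. Grik1 turned to -0.77 with the mean of its tested probes, one of which was well above background on 1 mPGC-1α array only. Gabrg3, with or without the replicate block, was 0.0465 with quantile normalization, 0.0910 with unmarked spots and 0.0474 with probes unmarked on all arrays. It was 0.0409 after normexp, 0.0477 with the series matrix and between -0.18 and 0.33 when single replicates were left out. The cause of these turns was not tested. Dim signal on the second slide limits the kainate, NMDA and glycine classes, of which 3 of 5, 5 of 7 and 3 of 5 genes were tested.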
